A study of Mus musculus with 62 samples.

Results

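The sodium pump, Na,K-ATPase, is built from a catalytic alpha subunit and a glycosylated beta subunit, and the 3 beta subunit genes Atp1b1, Atp1b2 and Atp1b3 are described here in 2 brain regions of stressed and unstressed mice, the nucleus accumbens (NAc) and the prefrontal cortex (PFC). They were found in the count table by the symbols that their Ensembl identifiers map to, and make up 3 of its 11121 genes. Mice were male C57BL/6J wild types of 15 weeks. Animals of the mCRS groups had gone through multimodal chronic restraint stress, a daily restraint in changing settings, and CTR animals were not stressed. The assay was BRB-seq, which reads the 3′ ends of mRNA after each sample has been marked with its own barcoded primer and the samples pooled. CTR and mCRS had 15 libraries each in the PFC and 16 each in the NAc, with totals of 945286 to 4857359 counts. All values are from bulk tissue, in which fewer cells of a type and less RNA per cell cannot be told apart.

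The pump moves sodium out of the cell and potassium in at the cost of ATP, and in brain it restores the ion gradients that action potentials and synaptic currents run down. The beta subunit carries the alpha subunit to the plasma membrane and tunes its affinity for potassium. In textbook descriptions Atp1b1 is mainly neuronal, Atp1b2, also known as the adhesion molecule on glia (AMOG), is mainly glial, and Atp1b3 is broadly expressed. Small FXYD proteins bind to the pump and adjust its kinetics. The ATP that it spends comes largely from oxidative phosphorylation (OXPHOS), whose subunits are encoded by nuclear genes and by mitochondrial DNA (mtDNA).

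Atp1b1 (ENSMUSG00000026576) lies on the minus strand of chromosome 1 of GRCm38, from 164437109 to 164458355. Its 3′ end overlaps that of Nme7 (164304121 to 164437725), which runs on the opposite strand. The sources used here do not say whether counting used strand, so reads from this overlap may not be told apart. Atp1b2 (ENSMUSG00000041329) is on the minus strand of chromosome 11, from 69599736 to 69605942. Atp1b3 (ENSMUSG00000032412) is on the minus strand of chromosome 9, from 96332655 to 96364442. Of the windows of 70 bases in the last 500 bases of their annotated transcripts, 0 were found in transcripts of another gene in the same direction. The reverse complement was not searched, so this search could not find the overlap with Nme7.

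RefSeq promoter sequence (GRCm38.p6) was at hand for Atp1b1 and Atp1b3. It is shown because these genes stood at very different levels in the same libraries, and it covers the 250 bases before a start site, read 5′ to 3′ on the minus strand. Capitals mark the GC box GGGCGG, the box named CCAAT, the element TATATA (a variant of the TATA box) and the motif TGACG (a cAMP response motif), all on either strand.
Atp1b1, chr1:164458356-164458605: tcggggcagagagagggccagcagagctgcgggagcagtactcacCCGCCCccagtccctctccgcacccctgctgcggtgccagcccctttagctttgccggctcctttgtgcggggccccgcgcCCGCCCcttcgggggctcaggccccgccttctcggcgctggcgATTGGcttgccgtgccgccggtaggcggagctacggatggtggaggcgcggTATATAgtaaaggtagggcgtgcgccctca
Atp1b3, chr9:96364432-96364681: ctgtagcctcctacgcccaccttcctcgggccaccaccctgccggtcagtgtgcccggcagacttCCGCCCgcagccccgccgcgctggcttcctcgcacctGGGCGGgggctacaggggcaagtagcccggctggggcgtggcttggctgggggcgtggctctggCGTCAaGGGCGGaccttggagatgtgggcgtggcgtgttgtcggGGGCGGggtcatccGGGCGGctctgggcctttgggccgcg
Both were rich in G and C, at 70.4% for Atp1b1 and 73.6% for Atp1b3 against a median of 52.4% over 32851 promoters of the same length. Atp1b1 held 2 GC boxes, 1 CCAAT box and 1 TATA variant, and Atp1b3 held 5 GC boxes and 1 cAMP motif, none of which overlapped. Of all promoters, 32.7% held the GC box, 33.9% the CCAAT box, 5.25% the TATA variant and 17.8% the cAMP motif. Neither window held the TATA box itself, spelled TATAAA (12.4% of all promoters), or the core motif of the glucocorticoid receptor, spelled AGAACA (16.1%). These are matches of letters only. The second RefSeq start site of Atp1b3, with the window 96363716 to 96363965, held none of these motifs.

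The labelled tissue was checked against marker genes. Of 8 genes of striatal projection neurons, 8 were lower in the PFC than in the NAc of CTR mice at a false discovery rate (FDR) below 0.05. Of 5 genes of cortical excitatory neurons 4 were higher. Over all 11025 genes tested, 1.89% were lower and 3.56% higher by the same limit. None of the markers was at 0 throughout a group. Single libraries lay far from their group's median in some lists, with no fixed limit set for this. NAc CTR 7 had 486.0 CPM (counts scaled to the library total) over the striatal genes, against a group median of 4508. NAc mCRS 10 had 21741 CPM over 2 genes of the choroid plexus, where the median was 53.3. For the same genes PFC CTR 13 had 270.5 CPM against a median of 2.73, and NAc CTR 1 had 317.6 CPM against 47.7. NAc mCRS 8 had 455.1 CPM over the cortical excitatory genes against a median of 74.7. PFC CTR 5 had 13543 CPM over 6 neuronal genes against a median of 7037. Of all genes in the count table, fewer were detected in PFC mCRS (82.3% ± 6.22) than in PFC CTR libraries (87.1% ± 4.42, SD, n = 15 each). The median total was 1966931 counts in PFC mCRS and 2398072 in PFC CTR libraries.

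Atp1b1 was by far the most abundant beta subunit gene in every group. Its CPM after TMM scaling ran from 1358 over a median of 1894 to 2309 in PFC CTR, and from 1039 over 1703 to 2256 in PFC mCRS libraries. In the NAc it ran from 1171 over 1565 to 2261 in CTR and from 955.3 over 1557 to 2154 in mCRS. The 4 ranges overlapped broadly. Its coefficient of variation within a group was smallest in PFC CTR at 12.9%, while NAc CTR had 15.9%, PFC mCRS 17.6% and NAc mCRS 18.5%. For Atp1b2 it ran from 31.0% to 41.6% and for Atp1b3 from 48.3% to 64.7%.

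Atp1b2 was found at a lower level, and the regions stood apart. In the PFC it had 108.5, 199.3 and 307.1 CPM (lowest, median and highest library) in CTR and 42.2, 187.7 and 321.8 CPM in mCRS. In the NAc it had 212.7, 318.6 and 575.2 CPM in CTR and 181.1, 301.5 and 553.6 CPM in mCRS. All 15 PFC CTR libraries lay below the median of NAc CTR, and 9 of them below its lowest library. In mCRS mice, 14 of 15 PFC libraries lay below the NAc median and 7 below the NAc minimum.

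Atp1b3 was the most uneven of the 3. It had 27.7, 142.7 and 270.6 CPM in PFC CTR and 0.529, 124.8 and 264.1 CPM in PFC mCRS. In the NAc it had 19.5, 174.5 and 500.7 CPM in CTR and 6.97, 137.9 and 411.0 CPM in mCRS. The lowest value, in PFC mCRS 14, rests on 1 count, and the lowest in NAc mCRS on 9. On the log2 scale its SD was 0.86 for CTR and 1.88 for mCRS libraries of the PFC, and 1.02 and 1.37 for those of the NAc. For Atp1b1 these were 0.20, 0.27, 0.22 and 0.28.

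**Figure D1:**
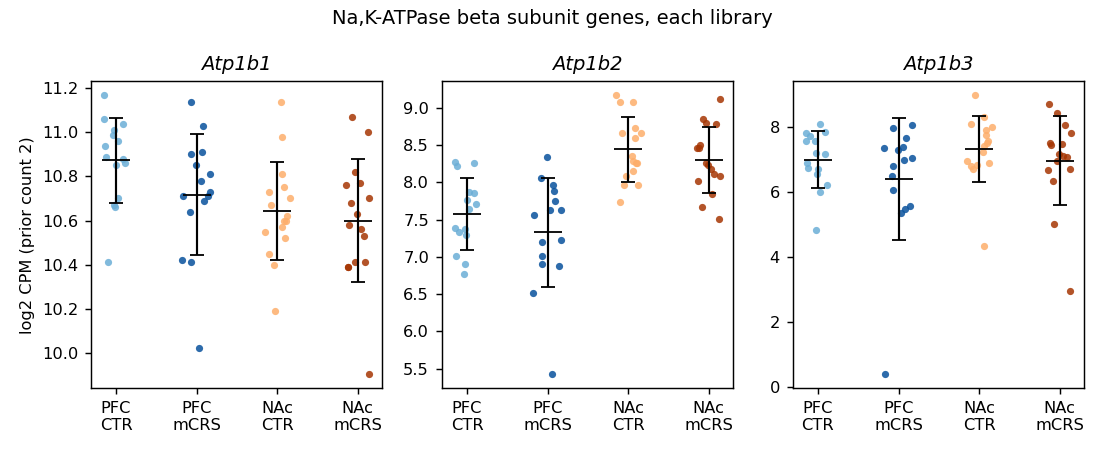
Log2 CPM (prior count 2) of the 3 beta subunit genes in each of the 62 libraries. Points are libraries, bars are the mean and SD of a group, and each panel has its own vertical axis. Atp1b2 sits lower in both PFC groups than in the NAc groups, while for Atp1b1 and Atp1b3 the groups overlap.

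Of all counts on the 3 genes, Atp1b1 took 84.5% ± 4.51 in PFC CTR and 85.1% ± 4.21 in PFC mCRS (SD, n = 15 each). In the NAc it took 74.6% ± 5.40 in CTR and 76.1% ± 6.68 in mCRS (n = 16 each). The share of Atp1b2 in CTR and mCRS libraries was 8.94% ± 2.56 and 8.93% ± 3.65 for the PFC and 16.6% ± 4.29 and 15.9% ± 4.13 for the NAc. Atp1b3 held the rest, with group means from 5.98% to 8.85%. Reads of a 3′ method do not scale with transcript length. With counts divided by the exon length all the same, the order of Atp1b1 over the others was the same, with 84.8% ± 4.85 of the counts per kb in PFC CTR and 75.8% ± 5.96 in NAc CTR. Per kb, Atp1b3 stood above Atp1b2 in the PFC, with medians of 59.7 and 48.8 CPM per kb in CTR and of 52.2 and 45.9 in mCRS libraries. In the NAc Atp1b2 was still the higher of the pair, with 78.0 against 73.0 CPM per kb in CTR and 73.8 against 57.7 in mCRS. The ranges of their shares per kb overlapped in each of the 4 groups.

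The first comparison asks whether repeated stress changed these genes within a region. In the PFC, the 3 beta subunit genes had log2 fold changes below 0 after mCRS, and none passed the test. The change was -0.14 for Atp1b1 (standard error 0.10, 95% interval -0.34 to 0.07, edgeR quasi-likelihood FDR = 1.0). It was -0.17 for Atp1b2 (standard error 0.23, interval -0.63 to 0.29, edgeR FDR = 1.0) and -0.23 for Atp1b3 (standard error 0.35, interval -0.94 to 0.48, edgeR FDR = 1.0). On the linear scale Atp1b1 stood at 0.908 of its CTR level, with an interval of 0.788 to 1.05. Of 8916 genes tested in the PFC, 0 (0%) passed an FDR of 0.05 with edgeR or with DESeq2. An unadjusted p below 0.05 was found for 312 (3.5%) with edgeR and 439 with DESeq2, and for 0 of the 3 beta subunit genes. Of the PFC mCRS libraries, 11 of 15 lay below the CTR median for Atp1b1, 10 for Atp1b2 and 9 for Atp1b3.

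Most markers of neurons, where Atp1b1 is mainly placed, were below 0 in the same comparison, and so were most markers of astrocytes. Of 6 neuronal genes 5 had a log2 fold change below 0 in the PFC after mCRS, with a median of -0.10, and 0 were called. Rbfox3 (-0.54) and Thy1 (-0.60), a neuronal splicing factor and a neuronal surface protein, had an unadjusted p below 0.05 (edgeR FDR = 0.945 for both). Of all 8916 genes tested, 123 were lower at that unadjusted p. Of 5 genes of cortical excitatory neurons 4 were below 0, with a median of -0.20 and none with an unadjusted p below 0.05. The summed level of the neuronal genes was 6342 to 13543 CPM in PFC CTR, the highest being PFC CTR 5, and 5813 to 7563 CPM in PFC mCRS libraries. The medians were close, at 7037 CPM in PFC CTR and 6858 CPM in PFC mCRS. Of 8 astrocyte genes 6 were below 0 in the PFC, with a median of -0.07. Of them 1 had an unadjusted p below 0.05 and 0 were called. In the NAc 3 of 6 neuronal genes were below 0, with a median of -0.03. The part of these cells in the level of Atp1b1 was not tested.

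In the NAc the fold changes were also below 0 and smaller than their intervals. For Atp1b1 the log2 fold change was -0.04 (standard error 0.09, interval -0.23 to 0.15, edgeR FDR = 1.0). Atp1b2 had -0.14 (standard error 0.16, interval -0.45 to 0.18) and Atp1b3 -0.23 (standard error 0.30, interval -0.82 to 0.36), both with an edgeR FDR of 1.0. For Atp1b1, 8 of 16 NAc mCRS libraries lay above the CTR median and 8 below it. Of 10141 genes tested in the NAc, 1 (0.00986%) passed an FDR of 0.05, and 207 (2.04%) had an unadjusted p below 0.05, none of them a beta subunit gene. The 1 that passed was Ttr, a gene of the choroid plexus. Without NAc mCRS 10, the library high in choroid plexus genes, 0 passed. The difference in the effect of mCRS between the regions was tested as an interaction. It was -0.11 for Atp1b1 (interval -0.38 to 0.16), -0.04 for Atp1b2 (-0.57 to 0.49) and -0.02 for Atp1b3 (-0.97 to 0.93), each with an edgeR FDR of 1.0. Over all 11025 genes 1 (0.00907%) passed, and 341 (3.09%) had an unadjusted p below 0.05. For Atp1b3 the interval spans changes to about 0.511 and 1.91 of the reference, so little can be said of it at this spread.

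Of the 5 FXYD genes counted, Fxyd7, a brain regulator of the pump, had the smallest p in the PFC. It had a value of -0.51 (log2 fold change, standard error 0.26, unadjusted p = 0.0599, edgeR FDR = 1.0), and 11 of 15 mCRS libraries lay below the CTR median. Fxyd6 had -0.30 and Fxyd1, also called phospholemman, 0.22. Fxyd5 had -0.22. Fxyd2, with 0 counts in 6 of 15 PFC CTR and 11 of 15 PFC mCRS libraries, did not pass the filter there. In the NAc the values were -0.35 for Fxyd7, 0.13 for Fxyd6, -0.38 for Fxyd1, 0.34 for Fxyd5 and 0.07 for Fxyd2. Of the Nkain genes, whose products bind the beta1 subunit, Nkain2 had -0.76 in the PFC (standard error 0.48, edgeR FDR = 1.0) and -1.08 in the NAc (standard error 0.50, unadjusted p = 0.0338, edgeR FDR = 1.0). Nkain3 had 0.88 and 0.30, and Nkain4 -0.24 and -0.18.

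The second comparison sets the regions against each other. Atp1b2 was lower in the PFC than in the NAc in both CTR and mCRS mice. In CTR mice its log2 fold change was -0.85 (standard error 0.19, interval -1.23 to -0.47, edgeR FDR = 0.0012), a ratio of 0.554. In mCRS mice it was -0.89 (standard error 0.19, interval -1.27 to -0.51, edgeR FDR = 0.00055), a ratio of 0.539. Atp1b1 went the other way in CTR mice with 0.23 (standard error 0.10, interval 0.04 to 0.41, unadjusted p = 0.0204), but did not pass the test (edgeR FDR = 0.217), and was at 0.12 in mCRS mice (edgeR FDR = 0.651). Atp1b3 had -0.40 in CTR (standard error 0.34, edgeR FDR = 0.768) and -0.42 in mCRS mice (standard error 0.34, edgeR FDR = 0.654). So 1 of 3 beta subunit genes was called, in each case as lower. Of 11025 genes, 600 (5.44%) were called in CTR, 392 (3.56%) higher and 208 (1.89%) lower in the PFC. In mCRS mice 715 (6.49%) were called, 426 (3.86%) higher and 289 (2.62%) lower. Both comparisons come from 1 fit and different libraries. Which PFC and NAc libraries came from the same mouse is not stated, so they were taken as independent.

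The fold change of Atp1b2 in CTR mice was -0.83 (edgeR FDR = 0.0022) without NAc CTR 7, the library low in striatal genes, and in mCRS mice -0.93 (edgeR FDR = 0.000351) without NAc mCRS 10. With each library left out in turn it ran from -0.89 to -0.78 in CTR and from -0.98 to -0.82 in mCRS mice. Markers of oligodendrocytes were lower as well, those of astrocytes in part, and those of neurons were mostly higher. Of 8 oligodendrocyte genes, 8 had a log2 fold change below 0 in CTR mice, with a median of -0.77. Of them 5 were called, where 1.89% of all genes were called lower. Mbp, a gene of a myelin protein, was at -0.74. The summed level of the oligodendrocyte genes was 1854 to 6350 CPM in PFC CTR and 5473 to 8408 CPM in NAc CTR libraries. Of 8 astrocyte genes 6 were below 0, with a median of -0.29 beside -0.04 for all genes, and 1 was called, Aldoc at -0.40 (edgeR FDR = 0.0227). Slc1a2 was at 0.33 (edgeR FDR = 0.0942). The astrocyte sums overlapped, from 2986 to 4608 CPM in PFC CTR and from 2889 to 4404 CPM in NAc CTR. Of 7 microglia genes 4 were above 0, with a median of 0.04, and 0 were called. Of 6 neuronal genes 5 were above 0, with a median of 0.88, and 4 were called higher, where 3.56% of all genes were. In mCRS mice 7 of 8 oligodendrocyte genes and 1 of 8 astrocyte genes were called lower, beside 2.62% of all genes. There 3 of 6 neuronal genes were called higher, beside 3.86% of all genes, and 0 of 7 microglia genes were called. The part of any of these cell types in the level of Atp1b2 was not tested.

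Fxyd7 and Fxyd6 were higher in the PFC. Fxyd7 had a log2 fold change of 1.81 in CTR (standard error 0.35, edgeR FDR = 9.6e-05) and 1.64 in mCRS mice (standard error 0.35, edgeR FDR = 0.00043). It had 47.4, 214.0 and 298.7 CPM in PFC CTR but 1.33, 63.2 and 129.6 CPM in NAc CTR, and 14 of 15 PFC CTR libraries exceeded the highest of the NAc. Fxyd6 had 1.06 in CTR (standard error 0.25, edgeR FDR = 0.0019), and had 0.63 in mCRS mice (edgeR FDR = 0.128). The other 3 FXYD genes and the 3 Nkain genes did not pass the test in either condition. Their log2 fold changes ran from -0.81 to 1.23 in CTR and from -2.66 to 0.79 in mCRS mice.

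**Figure D2:**
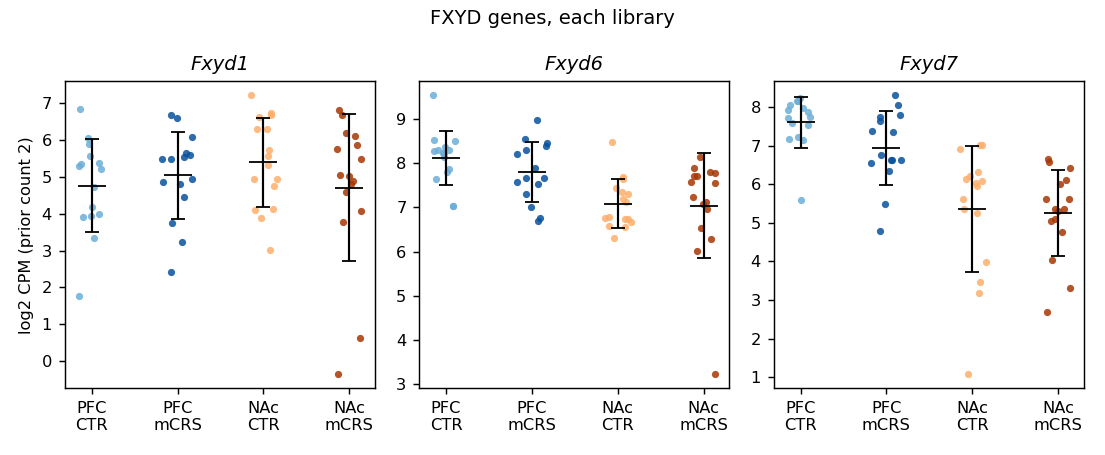
Log2 CPM (prior count 2) of Fxyd1, Fxyd6 and Fxyd7 in each library, with the mean and SD of each group and a vertical axis for each panel. Fxyd7 sits higher in the PFC, where 14 of 15 CTR libraries exceeded the highest of NAc CTR.

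**Figure D3:**
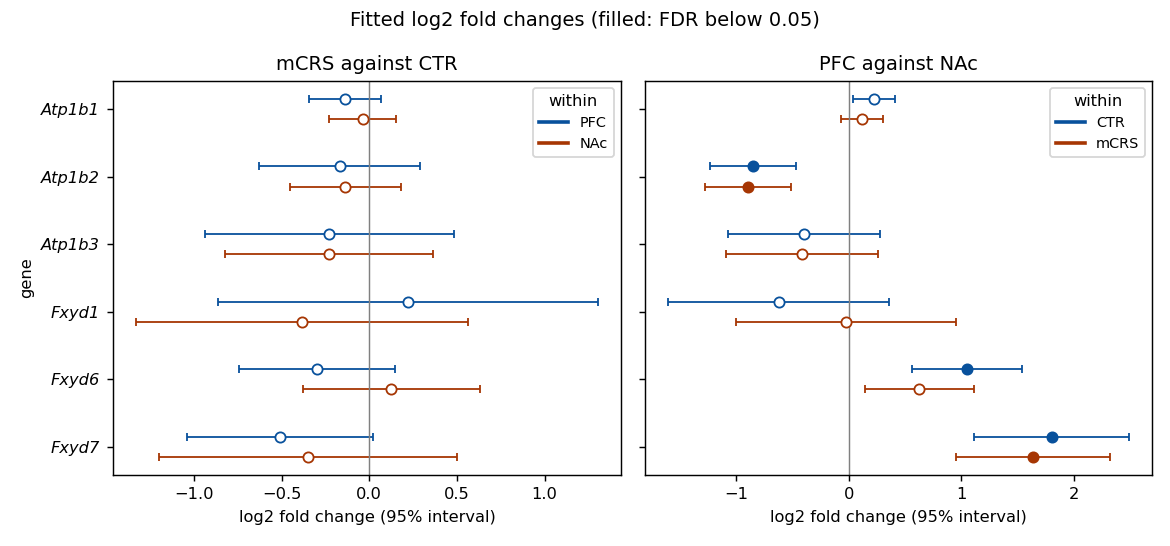
Fitted log2 fold changes with 95% intervals for 6 genes of the pump, for mCRS against CTR (left) and PFC against NAc (right). Filled points passed an FDR of 0.05. On the left all points are open, and on the right Atp1b2 and Fxyd7 are filled in both conditions and Fxyd6 in CTR mice.

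The ratio of Atp1b1 to Atp1b2 within a library needs no scaling between libraries. Its median was 9.11 in PFC CTR and 9.06 in PFC mCRS, and 4.57 in NAc CTR and 4.80 in NAc mCRS. The log2 ratio (pseudocount 0.5) was 3.30 ± 0.51 in PFC CTR and 2.21 ± 0.42 in NAc CTR (SD, n = 15 and 16). The difference of 1.09 (standard error 0.17) had an adjusted p of 8e-05 in a two-sided permutation test with 100000 resamples over 4 comparisons, and an unadjusted p of 2e-05, the smallest these resamples can give. All 15 PFC CTR libraries lay above the NAc CTR median and 12 above its maximum. In mCRS mice the difference was 1.09 (standard error 0.23, adjusted permutation p = 0.00012). The highest ratio, 41.4, was in PFC mCRS 3, the library with the least Atp1b2, and without it the difference was 0.95. Between mCRS and CTR it was 0.09 in the PFC (standard error 0.24) and 0.09 in the NAc (standard error 0.16), each with an adjusted permutation p of 0.714. The differences between regions restate in part that of Atp1b2, called above from the same counts, so their p is not independent evidence.

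The third comparison sets the beta subunits against the genes of ATP supply. Counts of Atp1b1 were divided by the summed counts of 79 nuclear OXPHOS genes, or of 7 mtDNA protein genes, of the same library. Both sums were taken as denominators with their higher level after mCRS in these PFC libraries already known. A lower ratio in the PFC thus restates that difference in part, and its p is not independent evidence. In the PFC the ratio of Atp1b1 to both was lower after mCRS. As a percentage of the nuclear OXPHOS counts, Atp1b1 stood at 6.24, 8.19 and 11.3% (lowest, median and highest) in PFC CTR and at 3.46, 6.18 and 10.7% in PFC mCRS libraries. Of the 15 mCRS libraries 13 lay below the CTR median and 8 below the CTR minimum. The log2 ratio differed by -0.41 (standard error 0.13, two-sided permutation p = 0.0029, adjusted p = 0.0176 over 12 tests). Against the mtDNA genes it stood at 1.0, 1.51 and 2.35% in CTR and at 0.567, 1.0 and 1.93% in mCRS libraries. Again 13 of 15 lay below the CTR median. The difference was -0.54 (standard error 0.17, permutation p = 0.0029, adjusted p = 0.0176).

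The 2 parts of this ratio are given apart. Atp1b1 itself had a log2 fold change of -0.14 and did not pass the test, so its part in the lower ratio was not shown. Most neuronal and most astrocyte markers were below 0 in the same comparison, as given above. The median summed level of the nuclear OXPHOS genes was 21775 CPM in PFC CTR and 28410 CPM in PFC mCRS, and that of the mtDNA genes 123459 and 172583 CPM. Of 77 nuclear OXPHOS genes tested in the PFC, 59 were above 0, with a median log2 fold change of 0.22 against -0.01 for all genes. None passed an FDR of 0.05, and 18 had an unadjusted p below 0.05, all higher, where 2.12% of all genes did so. Of the 7 mtDNA genes 7 were above 0, with a median of 0.42. All 7 had an unadjusted p below 0.05, and 0 passed an FDR of 0.05. The 2 nuclear genes with the smallest p were Uqcrb (0.83) and Uqcrh (0.65), subunits of complex III, and the mtDNA genes with the smallest p were mt-Nd2 (0.37) and mt-Cytb (0.43). The share of genes detected was lower in the same mCRS libraries. With that share as a covariate, an alternative chosen after the data were seen, the differences were -0.31 (permutation p = 0.0296, adjusted p = 0.178) and -0.41 (permutation p = 0.0283, adjusted p = 0.178), so the call was lost. With each library left out in turn they ran from -0.46 to -0.35 and from -0.61 to -0.48.

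In the NAc the ratio of Atp1b1 did not pass the test. It stood at 5.35, 8.03 and 11.4% of the nuclear OXPHOS counts in CTR and at 4.37, 7.22 and 11.2% in mCRS libraries. The log2 difference was -0.12 (standard error 0.10, adjusted permutation p = 0.331), and -0.09 against the mtDNA genes (standard error 0.10, adjusted permutation p = 0.367). The difference between the regions was then tested itself, by a permutation of residuals in a model of region and stress. For Atp1b1 it was -0.28 against the nuclear genes (standard error 0.16, permutation p = 0.0860, adjusted p = 0.258 over 6 tests). Against the mtDNA genes it was -0.45 (standard error 0.19, permutation p = 0.0221, adjusted p = 0.133), with the same limit on the choice of denominators. An effect particular to the PFC was thus not shown.

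The ratios of Atp1b2 and Atp1b3 were lower after mCRS in both regions by value, and none passed the test. In the PFC, Atp1b2 differed by -0.50 against the nuclear genes (standard error 0.29, adjusted permutation p = 0.219) and by -0.63 against the mtDNA genes (standard error 0.32, adjusted permutation p = 0.219). Atp1b3 differed by -0.90 (standard error 0.60, adjusted permutation p = 0.250) and -1.04 (standard error 0.61, adjusted permutation p = 0.219). Without PFC mCRS 14, the library with 1 count of Atp1b3, these were -0.41 and -0.54. In the NAc, Atp1b2 differed by -0.22 and -0.19 and Atp1b3 by -0.45 and -0.42, with adjusted permutation p from 0.331 to 0.367. Without NAc mCRS 3, with 9 counts, Atp1b3 was at -0.19 and -0.13.

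**Figure D4:**
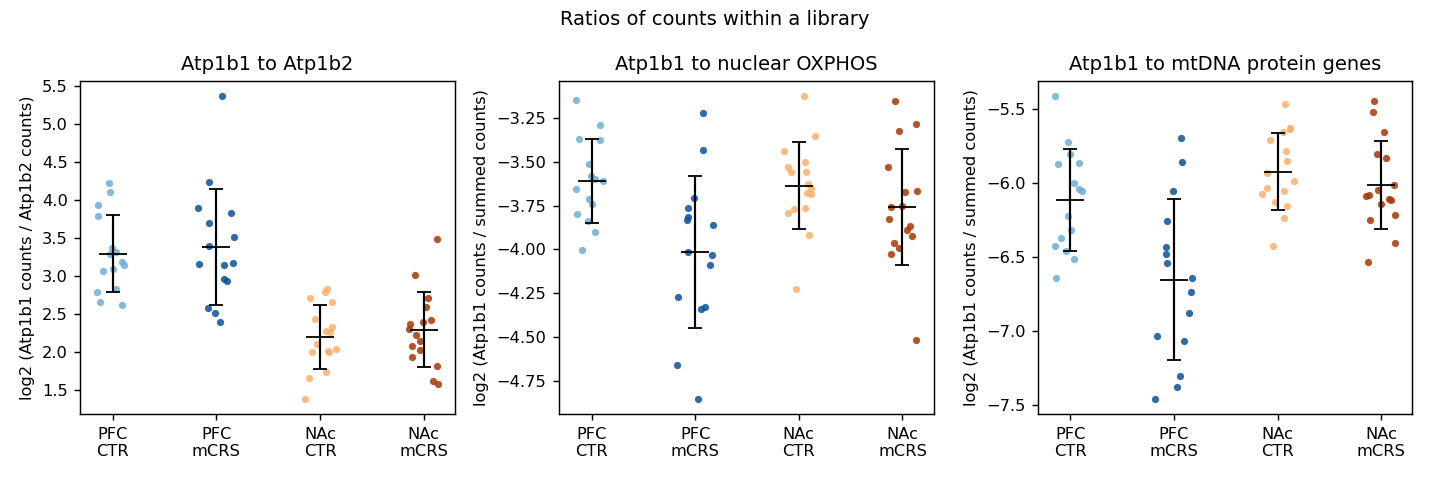
Log2 ratios of counts within each library, of Atp1b1 to Atp1b2 (left), to 79 nuclear OXPHOS genes (middle) and to 7 mtDNA protein genes (right). Points are libraries and bars the mean and SD of a group. The first ratio is higher in both PFC groups, and the other ratios are lowest on average in PFC mCRS, where 13 of 15 libraries lay below the CTR median.

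Other users of ATP or of the sodium gradient were set beside the beta subunits. After mCRS, 0 of 18 V-ATPase genes tested, 0 of 5 calcium pump genes and 0 of 17 genes of sodium-coupled transporters were called in the PFC. Of all 8916 genes tested there, 0 were called. The median log2 fold changes of these lists were 0.03, -0.04 and -0.05. The 3 beta subunit genes had a median of -0.17, which is the value of Atp1b2, and none was called. The 3 alpha subunit genes, all below 0, had a median of -0.06, and none was called. An unadjusted p below 0.05 was found for 0, 0 and 1 of the V-ATPase, calcium pump and transporter genes, where 3.5% of all genes had one. The last was the glial glutamate transporter Slc1a3 at -0.51 (edgeR FDR = 0.898). The smallest p among the V-ATPase genes were those of Atp6v1g1 (0.73) and Atp6v1d (0.31), and among the calcium pumps those of Atp2b4 (-0.17) and Atp2c1 (-0.16), all with an edgeR FDR of 1.0. In the NAc the medians of the V-ATPase, calcium pump and transporter genes were 0.08, 0.00 and 0.07. Again 0 were called, where 1 of all 10141 genes tested was. There 0, 0 and 3 genes had an unadjusted p below 0.05, where 2.04% of all genes did. Among the 3 were Slc1a3 (-0.35) and the glutamine transporter Slc38a1 (-0.42). By region, 3.56% of all genes tested were called higher in the PFC and 1.89% lower in CTR mice. In mCRS mice these shares were 3.86% and 2.62%. In CTR mice, 5 of 19 V-ATPase genes and 1 of 6 calcium pump genes were called higher in the PFC. Of the transporters 2 were higher and 5 lower. The smallest p of these pumps belonged to Atp6ap2 (1.01) and Atp6v1e1 (0.77) and to the calcium pumps Atp2a2 (0.45) and Atp2b1 (0.39, not called). One of the 5 lower transporters was the GABA transporter Slc6a11 (-2.06). In mCRS mice 4 V-ATPase genes and 1 calcium pump gene were higher, and of the transporters 1 was higher, the exchanger Slc24a2 (0.80), and 2 were lower, among them the bicarbonate transporter Slc4a4 (-1.14). Of the nuclear OXPHOS genes 10 of 78 were called higher and 0 lower in CTR, and 22 higher and 1 lower in mCRS mice. Ndufa4 (1.34) and Cox7a2 (1.06) had the smallest p in CTR, and Cox7b (1.77) and Cox7a2 (1.56) in mCRS mice. The mtDNA genes were called higher in 6 of 7 and 7 of 7. Atp1b2 was lower in the region where these called genes of ATP supply were mostly higher. Atp1b1, by far the most abundant of the 3, went the other way by value and was not called. The summed level of the 3 genes had a median of 2216.1 CPM in PFC CTR and 2159.5 CPM in NAc CTR. In mCRS libraries it was 1980.7 CPM for the PFC and 2020.6 CPM for the NAc.

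Finally, the genes whose levels went along with each beta subunit across libraries were sought, after centring log2 CPM on the 4 group means (62 libraries, 11024 other genes). The values are descriptions, since libraries share depth and quality. For Atp1b1 the largest Pearson correlations were with Synj2bp (0.46), Fmn2 (0.46), Copg2 (0.45), Ppm1e (0.43) and Dcun1d4 (0.43). For Atp1b2 they were with Rere (0.55), Tmcc2 (0.55), Mtss1l (0.52), Dpysl4 (0.52) and Camk2n2 (0.51). For Atp1b3 they included Usp20 (0.57), Disp2 (0.54), Chid1 (0.53) and Slx1b (0.53). The beta subunit genes were hardly related to each other, at 0.12 for Atp1b1 with Atp1b2, -0.12 for Atp1b1 with Atp1b3 and 0.02 for Atp1b2 with Atp1b3.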

How the data were processed

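The authors mapped BRB-seq reads with STAR to GRCm38 and counted uniquely mapped reads per gene with htseq, and deposited these counts without normalization. A use of molecular identifiers is not stated, so PCR copies are taken to be counted as they came. PFC samples of poor sequencing quality had been removed. The members and the gene lists, the OXPHOS and mtDNA lists included, were chosen with earlier results of these data known. Replicates are libraries of separate mice per the study's methods.

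Tests on counts used edgeR 4.0.16 in R 4.3.3, TMM scaling, the default filter by group, the quasi-likelihood test and Benjamini-Hochberg FDR below 0.05 over all genes tested. Stress was fitted within a region, and regions and interaction in 1 fit of 62 libraries. Standard errors are the log2 fold change over the root of F. Ratios were tested by two-sided permutation with 100000 resamples. Named genes were the 3 beta subunits, all counted FXYD and Nkain genes, the 2 of smallest p in a list described, and the 5 genes most alike each beta subunit. Some genes that this rule takes in are not reported here. Libraries named for their marker levels were singled out after their values were seen. Alternatives included DESeq2 1.42.0, other scalings and filters, and each library left out.

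On simulated counts with 200 changed genes, edgeR recovered 97 in the PFC at a log2 fold change of 2 and 23 at 1, with 3 and 1 false calls. For PFC against NAc in CTR it recovered 118 and 28, with 6 and 1 false calls. This simulation used the CTR libraries alone, whereas the reported test came from 1 fit of 62 libraries.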

Additional observations from a re-analysis of the deposited data

How the results depend on the processing

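Leaving out each library, Atp1b2 remained lower in the PFC, with log2 fold changes of -0.89 to -0.78 in CTR (edgeR FDR at most 0.0038) and -0.98 to -0.82 in mCRS mice (at most 0.0017). Under the other 7 settings they were -0.93 to -0.84 and -0.95 to -0.88, all called. Atp1b1 and Atp1b3 were called in none of the comparisons under any setting. With a library left out, Atp1b1 in the NAc ran from -0.073 to 0.0033, the interaction of Atp1b2 from -0.14 to 0.027, and that of Atp1b3 from -0.18 to 0.14. The interaction of Atp1b3 was 0.0017 with RLE size factors and 0.0022 with DESeq2. The Atp1b1 ratios fell to -0.31 and -0.41 with the detected share of genes in the model and lost their call (adjusted p = 0.178), and the cause was not tested.

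Genes called in the PFC after mCRS numbered 1 without a filter, 1 with the replicate block and 5 with all 62 libraries in 1 fit (0 to 2 with a library left out). In the NAc they were 2 without a filter, 2 with all 62 libraries, and 0 with DESeq2, with the detected share and with the block (0 to 1 with a library left out). The interaction gave 0 with the block and 1 to 7 with a library left out. Same-numbered libraries did not deviate together (largest r = 0.053, 0 pairs over 0.1), so the numbers were not taken as pairs, and with the block no call on a beta subunit changed. Of the ratios, calls with the block were the same. Atp1b3, with 1 and 9 counts in its lowest libraries, had the widest intervals.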
